A study of Homo sapiens with 36 samples.

Results

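The genes described here are those whose transcripts responded differently to a BRAF inhibitor plus a MEK inhibitor (BRAFi + MEKi) in 2 melanoma cell lines, 1205LuTR-NR2F1 and WM793TR-NR2F1. The response of a gene was the mean log2(normalized value + 1) of the 3 BRAFi + MEKi libraries of a line minus that of its 3 DMSO libraries. The measurement reported is the response in 1205Lu minus the response in WM793, called the difference throughout. A gene is called higher when this difference was above 0 and lower when it was below 0, whatever its level in either line. Of 60656 genes in the files, 22845 reached a mean normalized value of 1 in 1 or more of the 4 groups and were tested. The difference passed the test in 2808 of them, at a Benjamini-Hochberg adjusted p under 0.05 by limma's moderated test. The test used the 12 libraries without doxycycline (DOX), out of 36 in the series.

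Both lines carry BRAF-V600E, the Tet repressor (TR) and a lentiviral NR2F1 cDNA that DOX switches on, and both are populations selected with hygromycin. The 1205Lu line is known as a metastatic derivative of WM793. Cells were given DMSO, or the BRAFi PLX4720 at 1 µM with the MEKi PD0325901 at 35 nM, for 72 hours in 3 replicates per group. Replicates came from independent experiments, by the methods of the study. The labels give no DOX for these 4 groups, whereas the methods describe DOX for 24 hours before treatment and set no group apart, so earlier contact with DOX cannot be told from these sources. Another 12 libraries of the same lines and drugs with 100 ng/mL DOX, which shared no library with the first 12, were used for comparison.

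BRAF-V600E drives the MAPK pathway through MEK and ERK. ERK switches on genes for entry into the cell cycle together with its own brakes, the DUSP phosphatases and the Sprouty proteins. Blocking the pathway in melanoma is known to hold cells in G1 phase, to lower genes for growth and ribosome production, and to raise pigment, neural crest, invasive or antigen presentation programs to an extent that varies from line to line.

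Normalized values added up to between 28572328 and 34621958 in the 12 libraries, and their depth, estimated from the low value seen most often, was between 6600000 reads (replicate 1 of WM793 DMSO) and 52900000 reads (replicate 2 of 1205Lu DMSO). The correlation of log2 values across genes was between 0.966 and 0.984 for replicates of a group. SOX10, a defining factor of the melanocyte lineage, lay between 7464 and 20596 in every library. NR2F1 lay between 321 and 6273 in the libraries without DOX and between 9155 and 76313 in those with DOX of both lines. Of the marker genes of other cell types that could be tested, 0 of 8 for fibroblasts, 0 of 3 for keratinocytes or epithelium, 0 of 5 for endothelium and 1 of 4 for leukocytes (LYZ) differed. The share that differed among all genes tested was 12.3%, so few of these markers would be called at that share. A set of 17 genes at 300 or more in every 1205Lu library and under 2 in every WM793 replicate 1 library had a median of 0.515% of the 1205Lu level in WM793 BRAFi + MEKi replicate 2 and of 1.2% in replicate 3. In WM793 DMSO replicates 2 and 3 the medians were lower, at 0.12% and 0.247%. In replicates 2 and 3 of the WM793 libraries with DOX they were between 0.159% and 0.652%. The called genes that stayed under 2% of the 1205Lu level in both WM793 groups numbered 43, and the part of this trace in their calls was not tested. In bulk libraries such as these, fewer cells of a type and less RNA per cell cannot be told apart.

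The drug response was higher in 1205Lu for 1218 genes, 5.33% of those tested, and lower for 1590 genes, 6.96%, which made 12.3% in either direction. The median difference over all genes tested was -0.0031. Among the called genes the median size of the difference was 1.52 on the log2 scale, and it was over 2 for 1028 genes. Protein-coding genes made up 87.8% of the called genes and 68.5% of the genes tested. Leaving out WM793 BRAFi + MEKi replicate 3 gave 771 higher and 1028 lower genes, and leaving out replicate 2 of that group gave 806 and 1088. When each library was rescaled to the same total, 879 genes were higher and 2070 lower. The share of higher genes was then 29.8% against 43.4% before, and the median over all genes tested moved to -0.13.

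A gene could differ because it responded in a single line, in opposite directions, or in the same direction by unequal amounts, and all of these were common. The response itself passed the test in 1205Lu but not in WM793 for 1015 genes, of which 401 rose and 614 fell. It passed in WM793 but not in 1205Lu for 1089 genes, of which 616 rose and 473 fell. A further 233 genes changed in both lines in opposite directions, and 408 changed in the same direction, with the larger change in WM793 for 260 of them. The remaining 63 genes passed in neither line. Among the called genes, 135 were under a mean of 1 in both 1205Lu groups and 107 in both WM793 groups. The gap between the lines was smaller with the drugs than in DMSO for 1524 of the called genes (54.3%, beside 52.5% of all genes tested), and the order of the lines changed in 1629, beside 7107 of all genes tested (31.1%). Both counts use the values by which the genes were called and are given as a description. Over all genes tested, the response passed the test as a rise in 16% and as a fall in 14.4% in 1205Lu, and as a rise in 18% and as a fall in 14% in WM793.

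**Figure D1:**
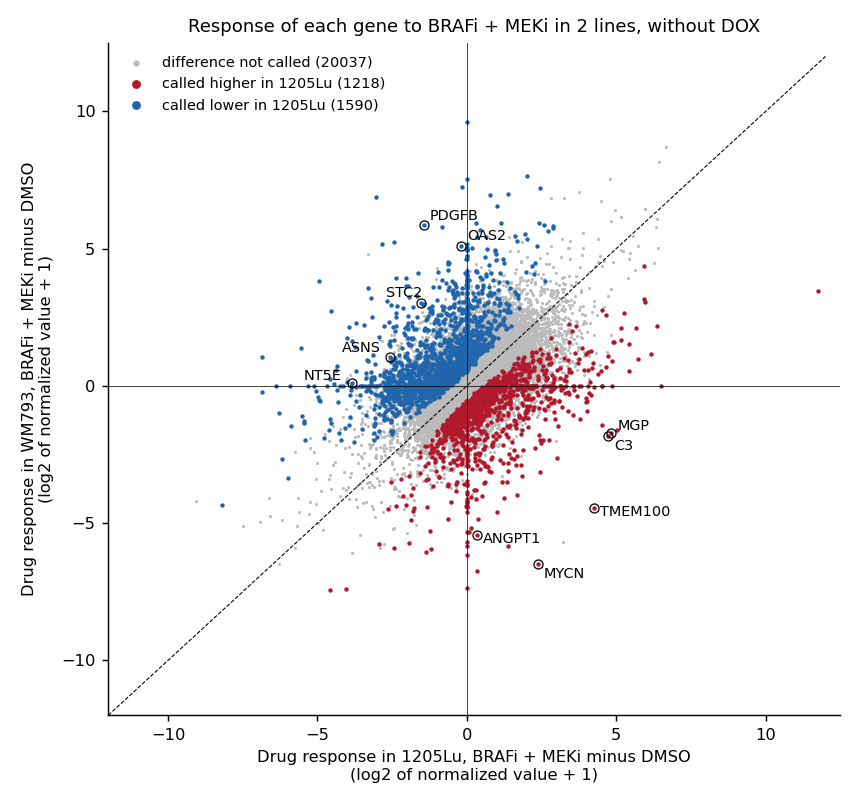
Each point is a gene, with the log2 response to BRAFi + MEKi in 1205Lu on the x axis and in WM793 on the y axis (3 libraries per group), and the dashed line marks equal responses. Points in red (1218 genes) were called higher in 1205Lu and points in blue (1590 genes) lower, and MYCN and TMEM100 lie far below the line because they changed in opposite directions.

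MYCN, a transcription factor of the MYC family, had the largest positive difference among genes that reached a mean of 100 in some group. Its normalized values in WM793 were 6307, 6194 and 5921 in DMSO and 65.4, 68.4 and 68.0 with BRAFi + MEKi. In 1205Lu they were 19.8, 41.8 and 31.8 in DMSO and 168, 143 and 168 with the drugs. The groups did not overlap in either line, and MYCN rose in 1205Lu and fell in WM793, a difference of 8.87 (SE 0.34, adjusted p = 2.9e-08 by limma). In DMSO the lines were far apart, and with the drugs they ended within a few fold of each other.

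TMEM100, a small membrane protein of endothelial and BMP signaling, followed the same pattern. Values of 2.55, 3.07 and 1.99 in 1205Lu DMSO libraries rose to 62.9, 62.4 and 70.6, whereas 1544, 1174 and 927 in WM793 fell to 62.7, 47.9 and 50.4 (difference 8.69, SE 0.43, adjusted p = 3.6e-07). With the drugs the libraries of both lines thus lay between 47.9 and 70.6. The complement component C3 went from 726, 222 and 244 to 7401, 9934 and 9911 in 1205Lu and from 14447, 22002 and 18283 to 6589, 4224 and 4594 in WM793, so that it rose in the line where it was low and fell in the line where it was high. MGP, an inhibitor of matrix calcification, had a difference of 6.54 of the same form. For AKR1C3, a ketosteroid reductase, the difference was 5.94 and the rise passed the test in 1205Lu alone. ANGPT1, the ligand of the TIE2 receptor, stayed between 246 and 396 in all 6 libraries of 1205Lu and fell in WM793 from 764, 433 and 451 to 21.0, 6.30 and 10.7.

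Several of the largest positive differences came from genes listed at 0 in 1205Lu. HAPLN1, a link protein of the hyaluronan matrix, PLAC8, TAFA5 and CPN1 were listed at 0 in all 6 libraries of 1205Lu, so that their difference is the WM793 response alone. HAPLN1 fell there from 518, 582 and 206 to 7.27, 0 and 0.756. PLAC8 fell from 1251, 2530 and 1542 to 40.5, 16.4 and 18.0. SLIT1, a secreted guidance ligand, was at most 5.72 in any 1205Lu library and fell in WM793 from 2317, 1770 and 2047 to 30.05, 11.01 and 17.4. The largest rise of all in 1205Lu was that of ANGPTL7, a secreted angiopoietin-like protein, from 0, 0.585 and 19.6 to 4385, 20649 and 14494. Its values in WM793 were 0 in each DMSO library and 4.90, 17.7 and 10.6 with the drugs. It belongs to the 43 genes under 2% of their 1205Lu level, and its call was lost with a pseudocount of 0.1.

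The largest negative differences were led by transcripts that rose in WM793. LRRC7, a scaffold protein of synapses, was listed at 0 in all 6 1205Lu libraries and all 3 WM793 DMSO libraries and was at 647, 827 and 874 in WM793 with BRAFi + MEKi. GRIN3A, an NMDA receptor subunit, was likewise at 0 in 1205Lu and rose in WM793 from 0, 0 and 1.36 to 157, 224 and 415. PDGFB, the growth factor chain that binds PDGFRB, rose in WM793 from 3.54, 137 and 76.0 to 1571, 2143 and 2731, whereas its highest 1205Lu value in any library was 7.27 (difference -7.29, SE 1.43, adjusted p = 0.0055). ESRP1, a splicing factor of epithelial cells, rose in WM793 to between 214 and 302 from at most 2.02. DIRC3-AS1, an antisense transcript whose reads may not be separable from those of the other strand, had the most negative difference on the log2(normalized value + 1) scale, at -9.93. Over the alternatives LRRC7 reached -12.92 and CCBE1 -11.85, beside -11.18 for DIRC3-AS1.

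Other genes of this group fell in 1205Lu while WM793 stayed level or rose. DKK1, a secreted WNT antagonist, fell in 1205Lu from 40.8, 17.6 and 15.9 to 0, 6.08 and 10.9 and rose in WM793 from 5.84, 26.98 and 4.96 to 293, 597 and 347 (difference -7.67, SE 1.2, adjusted p = 0.0014). CCBE1, a matrix protein of lymphatic growth, and ATP6V0A4, a proton pump subunit, also changed in opposite directions. ESM1, a proteoglycan made by endothelial cells, fell in 1205Lu from 401, 60.7 and 62.6 to 0 in each library and was at most 3.56 in WM793. LINC00973 and MPP4 fell in 1205Lu alone by the test. FABP5P7, a pseudogene of a fatty acid binding protein, was called here but under only 11 of 24 alternatives, and its reads may come from FABP5.

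**Figure D2:**
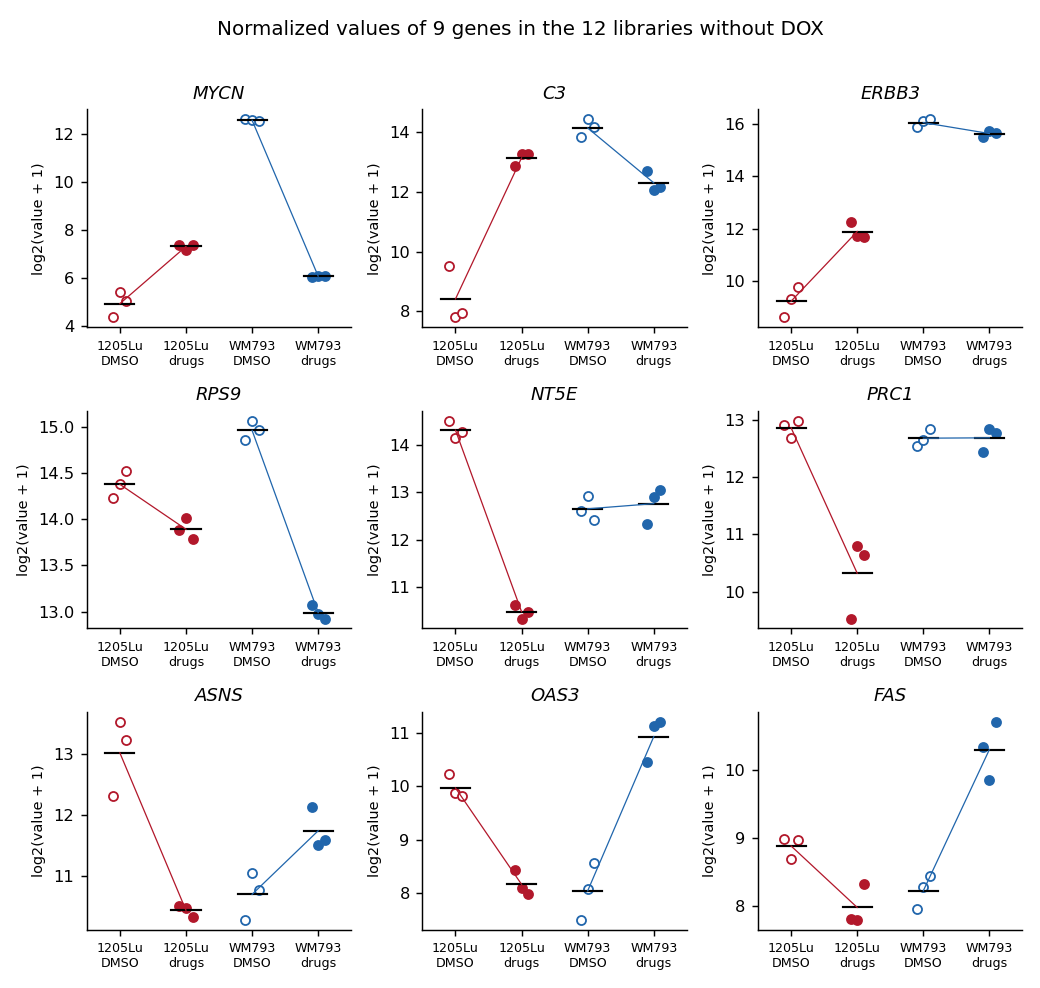
Each panel shows a gene on the log2(normalized value + 1) scale in the 12 libraries without DOX, with open circles for DMSO, filled circles for BRAFi + MEKi (drugs), red for 1205Lu, blue for WM793, a bar at each mean and a line joining the means of a line. MYCN and C3 moved in opposite directions, PRC1 and NT5E fell in 1205Lu while WM793 stayed level, and RPS9 fell farther in WM793.

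Mitosis genes were the list with the highest share of differing members. Of 52 tested, 50 were lower, 0 were higher, and the median difference was -2.17, beside 6.96% lower and a median of -0.0031 over all genes. All 52 fell in 1205Lu (median response -2.43), and 7 fell in WM793 (median -0.31), beside 14.4% and 14% of all genes. The mean log2 level of the list in 1205Lu was 11.53, 11.69 and 11.73 in DMSO and 8.53, 9.76 and 9.64 with BRAFi + MEKi, and in WM793 it was 11.33, 11.25 and 11.34 in DMSO and 10.78, 11.25 and 10.98 with the drugs. In DMSO the lines were close, and with the drugs the lowest WM793 library was above the highest 1205Lu library. The library of 1205Lu BRAFi + MEKi replicate 1 was the lowest, and without it 49 members were called with a median of -1.72. The members not called were HMMR (-1.29) and BUB3 (-0.05), which are named because they were the only 2.

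PRC1, which bundles microtubules at the spindle midzone, fell in 1205Lu from 7691, 6596 and 8130 to 737, 1770 and 1598. It was at 5984, 6429 and 7352 in WM793 DMSO libraries and at 5575, 7331 and 7013 with the drugs (difference -2.55, SE 0.36, adjusted p = 0.00086). KIF23, a kinesin of cytokinesis, fell from between 3776 and 3966 to 1055, 1283 and 1357 in 1205Lu and overlapped between the groups in WM793. ANLN, which scaffolds the contractile ring, fell in 1205Lu from 18920, 16921 and 20981 to 2391, 5538 and 5676, while in WM793 every drug library (16845, 23229 and 19553) was above every DMSO library (15187, 14225 and 15322). MKI67, the antigen used to count cycling cells, fell in 1205Lu by 2.69 on the log2 scale, and its response of -0.48 in WM793 was not called. NEK2, CENPF, TPX2 and TOP2A differed by between -2.50 and -1.80.

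Promoters of mitosis genes are known to carry the CHR element, through which the DREAM complex represses them in resting cells. The RefSeq promoter windows of GRCh38.p14, which run from 250 bases before to 50 bases after a start site, were searched on both strands for TTTGAA. These letters stood in 33 of the 45 tested mitosis genes with a window (73.3%) and in 32 of the 44 called ones with a window (72.7%), beside 10.6% of 13917 tested genes with a window and 15.4% of all 27305 windows. They stood in 1 of 38 DNA replication genes (2.63%). The windows of the 3 mitosis genes with a match and the smallest adjusted p are shown on the strand of the gene, with each match in capitals. That of KIF23 spans chr15:69414099-69414398 on the plus strand with a match starting at base -55 from the start site, that of PRC1 chr15:90994486-90994785 on the minus strand with a match at -20, and that of ANLN chr7:36389612-36389911 on the plus strand with 2 adjoining matches, on opposite strands, the first at -26.
KIF23: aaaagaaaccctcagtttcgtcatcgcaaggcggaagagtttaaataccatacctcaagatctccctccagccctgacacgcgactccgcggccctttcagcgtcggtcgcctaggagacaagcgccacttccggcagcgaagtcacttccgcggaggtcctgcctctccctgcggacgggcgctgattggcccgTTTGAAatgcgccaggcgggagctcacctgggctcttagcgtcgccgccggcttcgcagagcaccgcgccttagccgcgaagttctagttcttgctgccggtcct
PRC1: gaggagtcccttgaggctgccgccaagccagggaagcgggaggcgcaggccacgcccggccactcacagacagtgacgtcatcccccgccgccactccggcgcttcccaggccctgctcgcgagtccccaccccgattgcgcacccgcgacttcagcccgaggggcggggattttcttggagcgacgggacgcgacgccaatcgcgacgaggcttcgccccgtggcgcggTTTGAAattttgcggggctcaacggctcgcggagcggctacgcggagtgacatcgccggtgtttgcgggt
ANLN: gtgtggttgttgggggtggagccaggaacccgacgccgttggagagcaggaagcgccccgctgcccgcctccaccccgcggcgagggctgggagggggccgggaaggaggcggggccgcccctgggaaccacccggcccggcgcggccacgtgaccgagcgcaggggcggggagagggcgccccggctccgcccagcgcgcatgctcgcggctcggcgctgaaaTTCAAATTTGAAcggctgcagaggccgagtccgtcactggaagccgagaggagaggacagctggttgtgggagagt

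Of 49 DNA replication genes, 23 were lower (46.94%, beside 6.96% of all genes) and 0 higher, with a median difference of -1.56. In 1205Lu 47 of them fell (median response -1.85), and in WM793 3 fell (median -0.21), where 14.4% and 14% of all genes fell. Their mean log2 level in 1205Lu went from 10.35, 10.67 and 10.72 to 7.87, 9.41 and 9.29, and in WM793 it was 10.39, 10.65 and 10.65 in DMSO and 10.35, 10.32 and 10.40 with the drugs. Replicate 1 of the 1205Lu drug libraries again stood lowest, and leaving it out gave 28 called genes and a median of -0.95. Leaving out WM793 BRAFi + MEKi replicate 3 gave 12, and leaving out 1205Lu DMSO replicate 2 or 3, WM793 DMSO replicate 1 or 2, or WM793 BRAFi + MEKi replicate 2 gave 15. The fit of all 36 libraries gave 37, and the fit without a mean-variance trend 12. RRM2, the small subunit of ribonucleotide reductase, fell in 1205Lu from 7640, 6941 and 7464 to 220, 1302 and 1405 and overlapped between the groups in WM793. CLSPN, an adaptor of the replication checkpoint, fell from 1599, 1234 and 1897 to 354, 515 and 506 and in WM793 stayed between 1727 and 2077. ORC6, a subunit of the origin recognition complex, differed by -2.50 and RRM1 by -1.39. The helicase subunits MCM7 and MCM3 fell in 1205Lu, with differences of -0.97 (adjusted p = 0.088) and -1.03 (adjusted p = 0.081) that did not pass. They were called in 3 and 4 of 24 alternatives, among them both replicate blocks.

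Among cell cycle inhibitors and D cyclins, 2 of 19 genes were higher and 6 lower (10.53% and 31.58%, beside 5.33% and 6.96% of all genes). With a library left out, between 2 and 3 were higher and between 4 and 7 lower. Over the other alternatives these counts were between 1 and 3 and between 3 and 7. CDKN1C, which codes for the CDK inhibitor p57, rose in 1205Lu from 83.6, 77.4 and 43.6 to 221, 390 and 350 and fell in WM793 from 181, 159 and 260 to 87.5, 122 and 108 (difference 3.12, SE 0.45, adjusted p = 0.00093). CDKN2B, which codes for p15, was listed at 0 in 1205Lu and fell in WM793, a call lost under 1 of 24 alternatives. CDKN2D, which codes for p19, and CCND3, a D cyclin, fell in 1205Lu alone. CCND1, the D cyclin that ERK induces, fell in both lines by nearly the same amount, with a difference of 0.04 (SE 0.37, adjusted p = 0.96).

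Cytosolic ribosomal proteins moved the other way, because they fell farther in WM793. Of 51 tested, 42 were higher and 0 lower, beside 5.33% and 6.96% of all genes, with a median difference of 0.99. Their mean log2 level fell in WM793 from 15.21, 15.32 and 15.23 to 13.87, 13.83 and 13.80 and went in 1205Lu from 14.51, 14.85 and 14.72 to 14.10, 14.35 and 14.15. WM793 was thus above 1205Lu in DMSO and below it with the drugs, without overlap between the libraries. With libraries rescaled to the same total, 39 were called and the median was 0.84. RPS9 fell in 1205Lu from 19214, 21309 and 23473 to 15086, 16473 and 14065 and in WM793 from 29600, 34291 and 31874 to 8586, 8045 and 7772 (difference 1.49, SE 0.17, adjusted p = 0.00026). RPS4X, RPL37 and RPL9 differed by between 1.18 and 1.34. Ribosomal protein genes have many near-identical pseudogenes, among which reads can be split.

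Genes that build ribosomes showed the same direction, with 12 of 32 higher (37.5%, beside 5.33% of all genes), 0 lower and a median of 0.52. POLR1B, the second largest subunit of RNA polymerase I, fell in WM793 from 5559, 4117 and 4074 to 1509, 759 and 933 and overlapped between the groups in 1205Lu, from 943 to 1901 (difference 1.70, SE 0.36, adjusted p = 0.0079). UTP20, of the small subunit processome, differed by 1.5, POLR1C by 1.12 and NPM1, the nucleolar chaperone, by 0.88. Over all alternatives between 7 and 22 members were called, all of them higher, with 7 when replicate 2 or 3 of the WM793 drug libraries was left out.

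Genes of energy metabolism and protein folding were mostly higher where they differed. Nuclear oxidative phosphorylation subunits had 11 of 49 higher and 0 lower, glycolysis genes 6 of 25 higher and 1 lower, and heat shock and cytosolic chaperones 4 of 21 higher and 0 lower. The higher shares were 22.45%, 24% and 19.05% beside 5.33% of all genes, and the lower share of glycolysis genes was 4% beside 6.96%. These counts of higher genes fell to as few as 5, 3 and 2 when a library was left out. Over the other alternatives they were between 5 and 15, between 3 and 10 and between 1 and 8. For oxidative phosphorylation 8 of the 12 libraries moved the count by over 1.5 times, the farthest being 1205Lu BRAFi + MEKi replicate 3, and for glycolysis these were 1205Lu BRAFi + MEKi replicate 2 and WM793 BRAFi + MEKi replicates 2 and 3. The chaperone count was 2 without 1205Lu BRAFi + MEKi replicate 2 or without WM793 BRAFi + MEKi replicate 3. NDUFA4, a subunit of the respiratory chain, stayed between 6448 and 8304 in 1205Lu and fell in WM793 from 14590, 17197 and 15757 to 7913, 7945 and 7710, which is the level of 1205Lu. ENO1, the glycolytic enolase, fell in WM793 from 85804, 94252 and 80931 to 32787, 28405 and 29663, and its groups overlapped in 1205Lu. LDHB and PFKM differed by 0.97 and 1.22, and the chaperonin subunit CCT3 by 0.86. The 13 mRNAs encoded by mitochondrial DNA had 0 called in either direction, with a median of 0.04, and so did the 21 genes of endoplasmic reticulum chaperones and the unfolded protein response, with a median of 0.0046. These medians changed sign among the alternatives. Cholesterol synthesis genes fell in both lines, 21 of 24 in each (all genes 14.4% and 14%), and 1 differed (4.167%, beside 5.33% of all genes), HMGCS1 (1.17), which fell farther in WM793 and was called in 11 of 24 alternatives.

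The ATF4 list, which holds genes that amino acid shortage and the integrated stress response induce together with serine and amino acid synthesis genes, was called lower in 19 of 28 members and higher in 1, beside 6.96% and 5.33% of all genes, with a median of -1.65. In 1205Lu 20 of the genes fell (median response -1.14), and in WM793 13 rose (median 0.02), beside 14.4% of all genes that fell in 1205Lu and 18% that rose in WM793. The mean log2 level went from 11.21, 11.20 and 11.30 to 10.26, 10.19 and 10.12 in 1205Lu and from 10.36, 10.57 and 10.39 to 11.20, 10.90 and 11.08 in WM793. The groups of a line did not overlap, and with the drugs every WM793 library lay above every 1205Lu library, the reverse of DMSO. Between 19 and 22 members were called lower under every alternative run.

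ASNS, which makes asparagine, fell in 1205Lu from 5039, 11733 and 9504 to 1460, 1419 and 1287 and rose in WM793 from 1244, 2115 and 1739 to 4471, 2896 and 3070 (difference -3.61, SE 0.39, adjusted p = 0.00021). STC2, a secreted glycoprotein that ATF4 induces, fell in 1205Lu from 1885, 814 and 1525 to 260, 554 and 684 and rose in WM793 from 1066, 935 and 529 to 4049, 8616 and 8146. CEBPG, the dimer partner of ATF4, also changed in opposite directions, with a difference of -1.99. PSAT1, of serine synthesis, and SLC7A1, a transporter of cationic amino acids, fell in 1205Lu alone, by 2.35 and 1.75 on the log2 scale. CHAC1 (-5.66) and ATF4 itself (-1.91) were also lower and are named after their values were seen. The member called higher was DDIT4, an inhibitor of mTORC1, which fell in WM793 from 10225, 7866 and 8319 to 2734, 2613 and 2013 and went in 1205Lu from 1637, 2064 and 1980 to 1856, 4455 and 3355, overlapping (difference 2.53, SE 0.36, adjusted p = 0.00081).

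**Figure D3:**
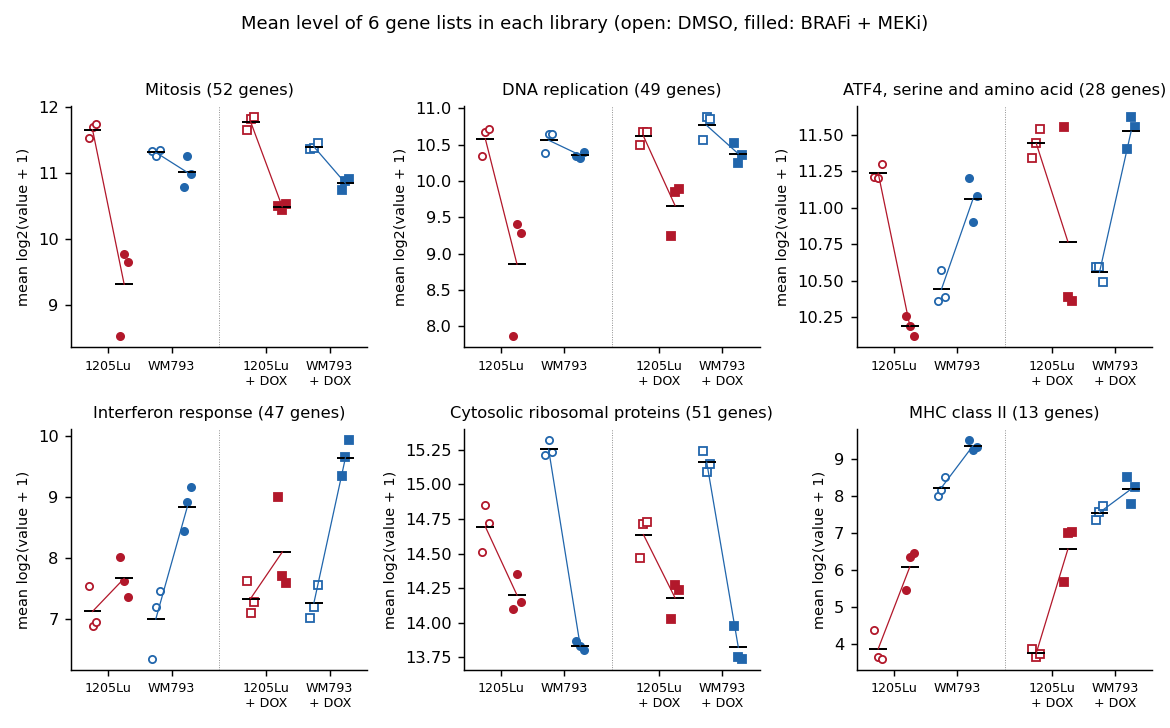
Each panel gives the mean log2(normalized value + 1) of a gene list in every library, open for DMSO and filled for BRAFi + MEKi, red for 1205Lu and blue for WM793, circles without DOX and squares with DOX, and bars at the group means. The mitosis and DNA replication lists fell in 1205Lu, the ATF4 list crossed between the lines, ribosomal proteins fell farther in WM793, and 1205Lu BRAFi + MEKi + DOX replicate 1 stood apart in the ATF4 list at 11.55.

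MAPK output genes fell in both lines, 24 of 30 in 1205Lu and 26 in WM793, beside 14.4% and 14% of all genes. The difference was called higher for 4 of them and lower for 9, beside 5.33% and 6.96% of all genes, with a median of -0.34. The lower genes numbered 5 without 1205Lu DMSO replicate 1 or without WM793 BRAFi + MEKi replicate 3, and the median was -0.19 without 1205Lu BRAFi + MEKi replicate 1 and -0.21 without 1205Lu DMSO replicate 1. SPRY4, a Sprouty protein, fell in 1205Lu from 10981, 13056 and 13049 to 236, 166 and 306 and in WM793 from 38213, 34443 and 31074 to 954, 446 and 452. That is a fall of nearly the same size, and the difference was 0.15 (SE 0.38, adjusted p = 0.84). LIF and IER3 also fell in both lines, with differences of 0.86 and 0.52 that were not called.

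Genes lower in 1205Lu were led by a phosphatase and ETS factors. DUSP5, which acts on nuclear ERK, fell in 1205Lu from 2352, 2030 and 1552 to 90.5, 77.2 and 48.2 and in WM793 from 438, 338 and 292 to 67.3, 113 and 108 (difference -2.90, SE 0.41, adjusted p = 0.00077). ETV4 and ETV5, transcription factors downstream of ERK, fell in both lines and differed by -2.65 and -2.56. With the drugs ETV4 was at 23.8, 36.8 and 37.4 in 1205Lu and at 311, 165 and 257 in WM793, from similar levels in DMSO. SPRED3, an inhibitor of RAF activation, differed by -2.35. PHLDA1 was lower by 0.65, a call kept in 10 of 24 alternatives.

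Genes higher in 1205Lu fell farther in WM793. EGR1, an immediate early transcription factor, went from 2090, 1137 and 986 to 58.7, 103 and 80.9 in 1205Lu and from 1330, 939 and 738 to 13.1, 6.33 and 0.875 in WM793 (difference 3.34, SE 0.81, adjusted p = 0.018). DUSP2 fell from 123, 168 and 123 to 36.1, 33.8 and 41.4 in 1205Lu and from 190, 301 and 244 to 7.78, 6.21 and 7.73 in WM793. SPRY1 fell in WM793 from 2289, 1134 and 910 to 137, 84.8 and 140 and overlapped between the groups in 1205Lu. DUSP4 differed by 1.47, a call kept in 12 of 24 alternatives. Both directions were thus found among the DUSP phosphatases.

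The interferon response list was lower in 15 of 47 members and higher in 2, beside 6.96% and 5.33% of all genes, with a median of -1.22. In WM793 32 of these genes rose (median response 1.78) and in 1205Lu 15 rose (median 0.52), beside 18% and 16% of all genes. The mean log2 level in WM793 went from 6.35, 7.19 and 7.46 to 8.45, 8.92 and 9.16, and in 1205Lu it was 7.55, 6.88 and 6.95 in DMSO and 8.01, 7.62 and 7.36 with the drugs. WM793 drug libraries were above all others, whereas the 1205Lu groups overlapped. Leaving out a library gave between 11 and 17 lower genes.

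OAS3, which makes the 2-5A signal that activates RNase L, fell in 1205Lu from 1199, 934 and 897 to 344, 272 and 252 and rose in WM793 from 181, 269 and 376 to 1406, 2229 and 2360 (difference -4.68, SE 0.38, adjusted p = 3.0e-05). Its neighbor OAS2 rose in WM793 from 4.68, 14.7 and 60.7 to 641, 462 and 756 and overlapped between the groups in 1205Lu, where it lay between 146 and 459. DTX3L, a ubiquitin ligase, rose in both lines and farther in WM793, a difference of -1.26. The exception with a large positive difference was IFIT2, an antiviral protein that binds RNA, which rose in 1205Lu from 72.3, 46.0 and 43.6 to 627, 482 and 433 and in WM793 from 630, 485 and 479 to 807, 1174 and 1269 (difference 2.24, SE 0.35, adjusted p = 0.0015). The drug libraries of 1205Lu thus reached the DMSO level of WM793.

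Interferon-induced promoters are known to carry a response element bound by IRF factors. GAAANNGAA was searched on both strands of the same windows and stood in 25 of 37 tested interferon list members with a window (67.6%) and in 5 of the 12 called ones (41.7%), beside 6.8% of tested genes and 8.29% of all windows. Among members called lower, the windows of the 3 with a match and the smallest adjusted p are shown, with matches in capitals. They are on the plus strand, which is the strand of each gene. They span chr12:112938224-112938523 for OAS3, with matches starting at -143 and -12, chr3:122564088-122564387 for DTX3L, with a match at -6, and chr21:41420308-41420607 for MX1, with 2 overlapping matches that start at 11 and 17 bases after the start site. MX1, a GTPase that blocks viruses, had a difference of -2.84 and was chosen by its window.
OAS3: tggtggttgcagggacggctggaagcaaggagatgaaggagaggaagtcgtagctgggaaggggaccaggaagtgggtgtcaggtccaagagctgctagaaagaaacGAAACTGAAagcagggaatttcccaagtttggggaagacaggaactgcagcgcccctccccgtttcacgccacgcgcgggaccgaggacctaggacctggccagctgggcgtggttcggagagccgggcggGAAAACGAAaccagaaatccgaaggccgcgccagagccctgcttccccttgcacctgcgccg
DTX3L: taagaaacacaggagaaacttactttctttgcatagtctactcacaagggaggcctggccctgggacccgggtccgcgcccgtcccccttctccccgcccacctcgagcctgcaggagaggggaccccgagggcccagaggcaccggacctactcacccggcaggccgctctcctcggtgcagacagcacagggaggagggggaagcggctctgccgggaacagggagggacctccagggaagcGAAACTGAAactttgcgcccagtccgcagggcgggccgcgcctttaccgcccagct
MX1: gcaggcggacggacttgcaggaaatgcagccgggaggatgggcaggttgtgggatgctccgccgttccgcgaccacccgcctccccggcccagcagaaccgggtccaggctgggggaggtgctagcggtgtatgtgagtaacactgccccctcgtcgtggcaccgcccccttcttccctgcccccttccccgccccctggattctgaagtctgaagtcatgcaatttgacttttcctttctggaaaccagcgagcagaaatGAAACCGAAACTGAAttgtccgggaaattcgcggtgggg

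Antigen presentation genes were counted by class, and the classes were not tested against each other. Of 13 MHC class II genes, 5 were higher and 1 lower, with a median of 1.26, and of 19 genes of MHC class I and antigen processing 0 were higher and 4 lower. Over all genes 5.33% were higher and 6.96% lower, and the class II gene called lower is 7.692% of its list. That gene, HLA-DOA, was called in 11 of 24 alternatives. The class II median was between 0.61 and 1.55 over the alternatives that left out no library. The class I count was 1 or 2 in 10 of the 12 fits that left out a library. Its called members were TAP1, kept in all 24 alternatives, and HLA-B, HLA-F and HLA-E, kept in 12, 13 and 17. HLA-DRA, the chain shared by all HLA-DR molecules, rose in 1205Lu from 22.2, 19.5 and 7.16 to 261, 1172 and 1017 and in WM793 from 2069, 3532 and 3361 to 11192, 7020 and 7566 (difference 3.90, SE 0.72, adjusted p = 0.0038). CD74, the invariant chain, rose from 14.5, 3.23 and 1.90 to 76.7, 299 and 232 in 1205Lu and from 7817, 12757 and 12753 to 25344, 38528 and 37110 in WM793. The fold was larger in 1205Lu, and every library of that line stayed below every library of WM793 in both genes. HLA-DRB1, whose reads may be shared with near-identical HLA-DRB genes, differed by 3.62 and HLA-DPA1 by 1.53. Of class I processing, the peptide transporter subunit TAP1 rose in WM793 from 978, 1027 and 1229 to 1650, 2027 and 2311 and overlapped between the groups in 1205Lu.

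Of 29 cytokine, chemokine and NF-kB target genes, 2 were lower (6.897%, beside 6.96% of all genes) and 0 higher, with a median of -0.43, which was 0.104 without WM793 DMSO replicate 1. The lower genes numbered 4 without 1205Lu BRAFi + MEKi replicate 1 or WM793 DMSO replicate 3 and 5 without WM793 BRAFi + MEKi replicate 1, and 2 genes were higher without 1205Lu DMSO replicate 1. IL6 rose in both lines, from 260, 242 and 261 to 435, 475 and 539 in 1205Lu and from 105, 124 and 134 to 1539, 1138 and 1191 in WM793 (difference -2.48, SE 0.25, adjusted p = 0.00013). The call for IL6 was lost in the fit of all 36 libraries, with an adjusted p of 0.063. CSF1, the growth factor of macrophages, also rose in both lines and farther in WM793, a difference of -1.83.

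Genes of the undifferentiated or invasive melanoma state were lower in 11 of 33 and higher in 2, with a median of -1.04 (-0.66 without 1205Lu BRAFi + MEKi replicate 1), and YAP/TEAD targets, which share NT5E and AXL with that list, were lower in 7 of 25 and higher in 1, beside 6.96% and 5.33% of all genes. The lower YAP/TEAD targets numbered 3 without WM793 BRAFi + MEKi replicate 3 and 4 without WM793 DMSO replicate 1 or 3, and between 3 and 12 over the other alternatives. NT5E, the ectoenzyme CD73, fell in 1205Lu from 23557, 18345 and 19789 to 1566, 1283 and 1422 and overlapped between the groups in WM793, at 6276, 7798 and 5455 in DMSO and 5145, 7714 and 8448 with the drugs (difference -3.96, SE 0.27, adjusted p = 6.6e-06). 1205Lu was thus above WM793 in DMSO and below it with BRAFi + MEKi. LOX, which crosslinks collagen, fell in 1205Lu from 3496, 2459 and 3087 to 374.8, 799 and 831, and in WM793 every drug library was above every DMSO library, although that rise was not called. AMOTL1, an angiomotin that binds YAP, was the YAP/TEAD member called higher (1.56), and CCN2 was lower by 3.83 in a call kept in 15 of 24 alternatives.

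Receptor tyrosine kinases differed in both directions, 6 of 44 higher (13.6%, beside 5.33% of all genes) and 4 lower (9.09%, beside 6.96%). AXL rose in WM793 from 2130, 4174 and 3386 to 5180, 9165 and 8881, and its response of -0.61 in 1205Lu was not called (difference -1.88, SE 0.36, adjusted p = 0.0052). ERBB3, the neuregulin receptor, rose in 1205Lu from 389, 626 and 871 to 4908, 3346 and 3306 and went in WM793 from 60044, 70125 and 74041 to 46573, 54940 and 51050, which was not called (difference 3.08, SE 0.34, adjusted p = 0.00021). Its level in 1205Lu stayed far below that of WM793. EPHB3, an ephrin receptor, had the same form, with 195, 350 and 410 rising to 1657, 2933 and 1619 in 1205Lu. ALK fell in 1205Lu from 166, 188 and 203 to 19.1, 32.1 and 43.0 and rose in WM793 from 42.0, 25.2 and 19.5 to 73.6, 101 and 73.6. FLT1, a VEGF receptor, fell in both lines and farther in WM793 (1.92), PDGFRB rose in both and farther in 1205Lu (1.23), and EPHA2 fell in 1205Lu alone (-2.32).

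Neural crest and pigment cell lists had nearly as many higher as lower members, 4 and 5 of 29 for the first (13.8% and 17.2%) and 3 and 3 of 26 for the second (11.5% each way), beside 5.33% and 6.96% of all genes, and their medians (0.23 and -0.07) changed sign among the alternatives. The lower members numbered between 2 and 7 for the first and between 0 and 3 for the second when a library was left out. EDNRB, the endothelin receptor of melanoblasts, rose in 1205Lu from 382, 261 and 284 to 3082, 1838 and 2014 and stayed between 3648 and 5485 in WM793 (difference 2.79, SE 0.30, adjusted p = 0.00021). TFAP2B, a neural crest factor, rose in 1205Lu from 9.68, 6.196 and 9.17 to 82.3, 109 and 138 and was at most 2.37 in WM793. FOXD3, which keeps neural crest cells undifferentiated, rose in both lines and farther in WM793, from 66.3, 36.9 and 41.9 to 912, 1339 and 1007 (difference -2.20). NGFR, the low-affinity neurotrophin receptor, rose in WM793 with a wide spread, at 1439, 11890 and 3709, and its call held in 18 of 24 alternatives. S100A4, a calcium-binding protein of migrating cells, fell in both lines and farther in WM793 (1.72). PAX3 rose in WM793 alone (-0.91, kept in 22 of 24 alternatives), and the differences of SOX10 (0.37), MYO5A (-0.61) and APOE (1.44) were not called. MITF, named after its values were seen, had a difference of 0.97 that was not called either.

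Matrix and guidance genes differed in both directions, with 4 of 32 collagens higher and 5 lower, 3 of 32 integrins and laminins higher and 4 lower, 5 of 33 proteases, ADAMs and TIMPs higher and 8 lower, and 5 of 53 guidance molecules higher and 6 lower. These shares were between 9.38% and 15.2% higher and between 11.3% and 24.2% lower, beside 5.33% and 6.96% of all genes. Leaving out a library gave between 2 and 4 lower collagens, between 3 and 6 lower integrins and laminins and between 3 and 7 lower guidance molecules. Over the other alternatives, lower integrins and laminins numbered between 3 and 9, and so did lower guidance molecules. TIMP3, an inhibitor of metalloproteases, fell in 1205Lu from 45102, 73957 and 64046 to 26200, 24541 and 21305 and rose in WM793 from 22696, 36017 and 28518 to 48100, 42149 and 55182 (difference -2.08, SE 0.29, adjusted p = 0.00077). ITGA6, a laminin receptor subunit, fell in 1205Lu from 19863, 28878 and 33658 to 4581, 6656 and 6751 and lay between 7701 and 10186 in WM793. ITGA1, a collagen receptor subunit, rose in 1205Lu from 1677, 868 and 1588 to 5242, 4655 and 7214. LAMA4, a laminin chain, fell in WM793 from 25641, 25049 and 19079 to 6181, 4610 and 5768 and overlapped between the groups in 1205Lu. COL4A1, a chain of basement membranes, rose in both lines and farther in WM793, where it reached 27875, 48253 and 43286 (difference -1.27). COL15A1 fell in WM793 from 5376, 5531 and 5445 to 736, 650 and 859 and its 1205Lu groups overlapped (difference 2.55). SEMA3D, a semaphorin, fell in 1205Lu and rose in WM793 (-4.10), its receptor subunit NRP1 rose in WM793 alone (-1.98), and the SLIT receptor ROBO1 rose in 1205Lu alone (1.41).

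Of 35 WNT genes 5 were higher and 5 lower (between 2 and 6 lower with a library left out), and of 20 Notch genes 2 were each way (between 2 and 3 higher and between 1 and 4 lower with a library left out). That is 14.29% of the WNT list each way and 10% of the Notch list, beside 5.33% higher and 6.96% lower over all genes. FZD7, a WNT receptor, fell in WM793 from 4164, 2744 and 2522 to 511, 539 and 492 and less in 1205Lu, from 1522, 2294 and 1908 to 841, 1320 and 1144 (difference 1.78, SE 0.30, adjusted p = 0.0025). FZD4 rose in 1205Lu and fell in WM793 (1.69). DKK3, a secreted relative of DKK1, rose in both lines, from between 39154 and 46574 to between 134570 and 174183 in 1205Lu and from 4680, 5269 and 6817 to 35481, 42937 and 40679 in WM793 (difference -1.08). HEY1, a target of Notch, rose in 1205Lu and fell in WM793 (2.13), and its relative HEY2 fell in WM793 alone (1.92).

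Of 16 BCL2 family genes, 2 were higher and 2 lower, beside 5.33% and 6.96% of all genes. BCL2L11, which codes for the death-inducing protein BIM, rose in 1205Lu from 410, 328 and 336 to 1531, 988 and 1074 and overlapped between the groups in WM793, at 824, 720 and 812 in DMSO and 988, 586 and 640 with the drugs (difference 1.84, SE 0.30, adjusted p = 0.002). BMF, another death-inducing member, rose in both lines and farther in 1205Lu (1.73). BCL2, which protects from apoptosis, fell in 1205Lu from 468, 388 and 439 to 118, 216 and 235 and rose in WM793 from 384, 338 and 282 to 1089, 645 and 802 (difference -2.55, SE 0.38, adjusted p = 0.00099). PMAIP1, which codes for NOXA, fell in both lines and farther in 1205Lu (-2.25).

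Of 24 p53 target genes 7 were lower and 1 higher, and of 35 lysosome and autophagy genes 11 were lower and 2 higher. The lower shares were 29.2% and 31.4% beside 6.96% of all genes, and the higher shares, 4.167% and 5.714%, were near the 5.33% of all genes. The lower p53 targets numbered 4 in 5 of the 12 fits that left out a library, and the lower lysosome genes 7 without WM793 BRAFi + MEKi replicate 3. FAS, the death receptor, fell in 1205Lu from 503, 414 and 500.5 to 224, 221 and 319 and rose in WM793 from 246, 308 and 347 to 1296, 925 and 1676 (difference -2.99, SE 0.33, adjusted p = 0.00021). DDB2, of DNA repair, and SESN2, an inhibitor of mTORC1 that is also on the ATF4 list, changed in opposite directions as well. CDKN1A, which codes for p21, fell in 1205Lu alone (-1.33, kept in 23 of 24 alternatives). CD68, a lysosomal membrane glycoprotein, fell in 1205Lu from 2189, 2409 and 1919 to 487, 582 and 353 and rose in WM793 from 345, 513 and 425 to 518, 989 and 845. CTSB, a cathepsin, did the same (-1.09), and LAMP2, of the lysosome membrane, rose in both lines and farther in WM793 (-1.10).

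**Figure D4:**
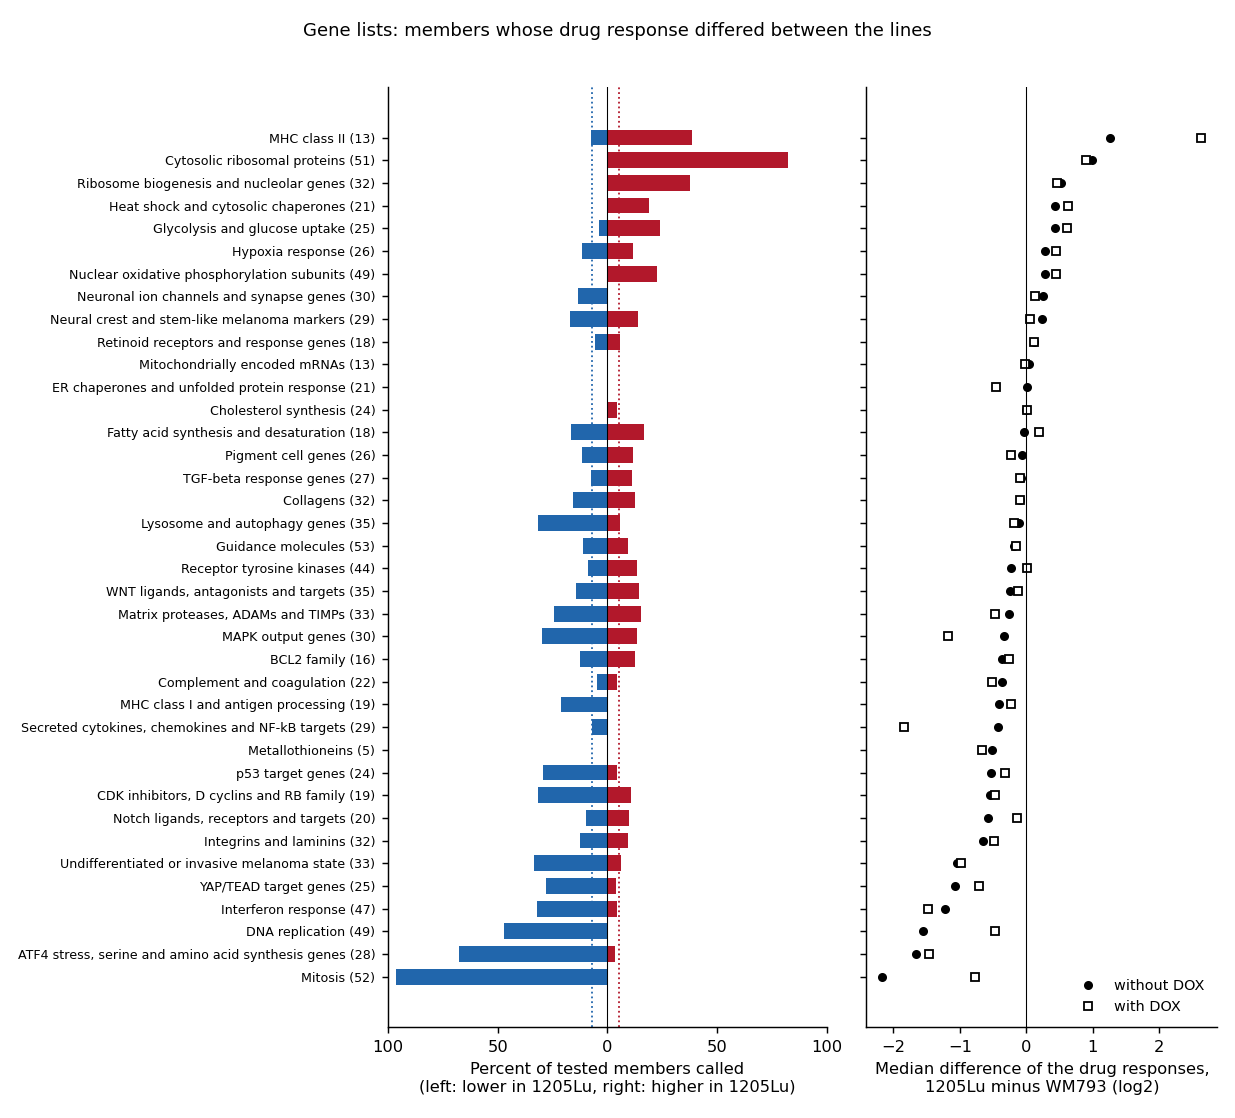
The left panel gives the percent of tested members of each list called lower (blue) or higher (red) in 1205Lu, with dotted lines at the 6.96% and 5.33% of all genes tested, and the right panel the median difference of the list without DOX (filled circles) and with DOX (open squares), with the number of members tested in parentheses. In the left panel mitosis, ATF4 and DNA replication genes have the largest shares lower and cytosolic ribosomal proteins the largest share higher, and the right panel shows MHC class II at 1.26 without and 2.64 with DOX.

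The same difference was computed in the 12 libraries with DOX, in which NR2F1 was induced. Of 22825 genes tested there, 1186 were higher (5.2%) and 1570 lower (6.88%), 12.1% of those tested. Of the 2808 genes, 2795 could be tested, and 2714 of these (97.1%) had the same sign, beside 70.4% of 18837 genes not called without DOX. The difference was called again in 1555 (55.6%), and 0 were called with the opposite sign. Its median size in the direction seen without DOX was 1.05. MYCN (8.39), NT5E (-4.31), ETV5 (-3.81), ASNS (-3.52), OAS3 (-4.24), RPS9 (1.37), ERBB3 (3.23) and CDKN1C (3.02) were among those called again. IFIT2 was not (-0.09, adjusted p = 0.91), nor were COL15A1 (0.41, adjusted p = 0.56), LGR5 (0.40, adjusted p = 0.70) and DUSP2 (0.92, adjusted p = 0.29). LGR5, a WNT target and R-spondin receptor, had a difference of 2.52 without DOX.

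List counts with DOX are given out of the members tested without DOX, beside 5.2% higher and 6.88% lower over all genes tested with DOX. The mitosis median was -0.78 with DOX against -2.17 without, with 34 of 52 lower and 0 higher. The DNA replication median was -0.47, with 10 of 49 lower and 0 higher. The ribosomal protein median was 0.90, with 45 of 51 higher and 0 lower. The ATF4 median was -1.47, with 19 of 28 lower and 1 higher, and the interferon median -1.48, with 20 of 47 lower and 3 higher. The MAPK output median was -1.18, with 12 of 30 lower and 1 higher, and the MHC class II median 2.64, with 9 of 13 higher and 1 lower. The cytokine, chemokine and NF-kB list had the lowest median with DOX, -1.83, with 10 of 29 lower and 1 higher. Leaving out WM793 BRAFi + MEKi + DOX replicate 3 gave 22 lower mitosis genes, 29 higher ribosomal proteins and 5 lower cytokine list genes. Over the fits that left out a library, between 10 and 32 interferon genes, between 9 and 22 ATF4 list genes (19 with all libraries) and between 5 and 18 cytokine list genes were lower. The highest count of each of these lists came without 1205Lu BRAFi + MEKi + DOX replicate 1. A test of the change in the difference between both sets of libraries called 0 of 24038 genes by limma, with 1234 at an unadjusted p under 0.05. The library of 1205Lu BRAFi + MEKi + DOX replicate 1 stood apart from its replicates, with a mean log2 level of the ATF4 list of 11.55 against 10.39 and 10.36. Without it, 2038 genes were higher and 2412 lower.

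**Figure D5:**
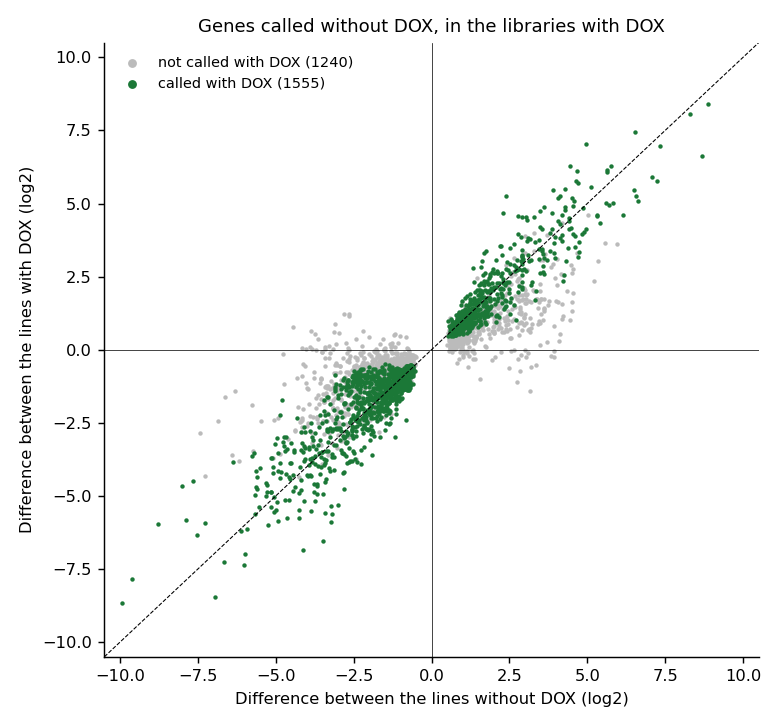
Each point is a gene called without DOX, with its difference between the lines without DOX on the x axis and with DOX on the y axis, both in log2 units, and a dashed line where they are equal. Of the 2795 genes plotted, 1555 (green) were called again with DOX and lie on the same side of 0, and 1240 (grey) were not called.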

How the data were processed

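RNA was extracted with an RNeasy kit and libraries were prepared with the TruSeq RNA Library Prep Kit v2. The authors aligned reads with STAR to GRCh38, quantified genes with RSEM and normalized them with DESeq2, per the methods and the submitters' processing notes. They deposited 1 signal value per gene and library, a normalized expression value on a linear scale that is scaled between libraries but not per length, so levels are compared between libraries and not between genes. The values are not read counts, and low values were not multiples of a single step, so depth is an estimate.

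Groups came from the titles in the labels. Per gene, log2(value + 1) of the 12 libraries was fitted with 4 group means in limma 3.58.1 (R 4.3.3, mean-variance trend), and the difference of both drug responses was tested, with Benjamini-Hochberg adjustment over all 22845 genes and a threshold of 0.05. Fold changes on this scale understate those of low genes. The test was tried on simulated data first. Gene lists were written from general knowledge. Named genes are, the 12 largest differences in each direction among called genes that reached a mean of 100 in some group, up to 4 called members of each list per direction by adjusted p, and up to 6 members by level of the MAPK output, pigment, mitosis and DNA replication lists. Some genes that this rule named are not reported here. The comparison, the members and the lists were chosen with earlier results of these data known. Alternatives were the pseudocount, the filter, the libraries fitted, a replicate block, rescaling, array weights, no mean-variance trend and leaving out each library. The test of the change with DOX and the list counts under the alternatives were added after the data had been seen. Promoter windows are from RefSeq (GRCh38.p14). Python 3.11.15 and pandas 2.3.3 were used for tables.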

Additional observations from a re-analysis of the deposited data

Results flagged for a closer look

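Drug responses that differ between the cell lines by a test of the difference itself stand out in 3 counts. The response was higher in 1205Lu than in WM793 for 1218 genes and lower for 1590 genes, by limma's test of the difference. Among them, 233 genes passed the test in both lines in opposite directions, such as MYCN, TMEM100, ASNS, OAS3, FAS and BCL2. No group held more than 3 libraries, so Dixon's test for a single outlying library was not run.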

How the results depend on the processing

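No called gene took the opposite sign under the pseudocount, filter, fit, block, rescaling, weighting or trend alternatives. The count of higher genes was 1836 in the fit of all 36 libraries and 2126 with array weights, and that of lower genes 2420 with array weights. Leaving out each library in turn gave between 771 and 1170 higher and between 1028 and 1631 lower genes without DOX, and between 670 and 2038 higher and between 944 and 2412 lower genes with DOX. With a replicate block across both lines 1447 genes were higher and 1862 lower, and with a replicate block within each line 1655 and 2095. Across all genes tested, the correlation of deviations between same-numbered libraries was from 0.000396 to 0.177, and across genes with a mean of at least 30 it was from -0.0443 to 0.394. In the second set the 3 same-numbered correlations between DMSO and BRAFi + MEKi were from 0.156 to 0.394 in 1205Lu. In WM793 they were 0.297, 0.0546 and 0.235 for replicates 1, 2 and 3. The main fit used no block, so a pairing of libraries by number within a line is not accounted for in its counts. A library correlated best with its own number in 21 of 24 comparisons over all genes and in 17 of 24 over the second set. MCM3 and MCM7, whose differences did not pass without a block, were called lower with either block, and APOE was called higher with the block within each line. Other alternatives gave between 879 and 1491 higher and between 1262 and 2231 lower genes. The cause of these changes was not tested. Of 202 named genes that were called, 140 were called under all 24 alternatives, 62 were lost under at least 1, and 0 reversed. Limits are 3 libraries per group, about 6600000 estimated reads in WM793 DMSO replicate 1 with an array weight of 0.36, and 1 pair of lines.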
